A study of Mus musculus with 12 samples.

Results

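Cyclic GMP-AMP synthase (cGAS) is a cytosolic DNA sensor. When it binds double-stranded DNA it makes the messenger cGAMP, which activates STING, and STING in turn engages the kinase TBK1 and its relative IKK-epsilon, which phosphorylate the transcription factor IRF3 and so switch on the type I interferon gene Ifnb1. RNA sensors of the RIG-I family reach the same kinases through the mitochondrial adaptor MAVS, and lipopolysaccharide (LPS) reaches them through Toll-like receptor 4. Many sensors, nucleases and kinases of this system are themselves interferon-stimulated genes, which are transcribed at a higher rate once interferon is sensed.

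The 10 genes described here were taken by symbol from a table of 38739 gene symbols, in all 12 samples. They are the DNA sensor Cgas, the kinases Tbk1 and Ikbke, the transcription factor Irf3, the nucleic acid-degrading or nucleotide-depleting enzymes Trex1 and Samhd1, the adaptor Mavs, the RNA sensors Ifih1 (MDA5) and Dhx58 (LGP2), and the Z-form nucleic acid sensor Zbp1. All 10 passed the filter on low values, which 11887 genes passed. Sting1 was not analysed here.

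The samples were bone marrow-derived macrophages of wild-type (WT) C57BL/6J and cGAS-/- male mice, left untreated (UT) or given LPS of Escherichia coli, which made 4 groups of 3 samples named by genotype and treatment (WT UT, cGAS-/- UT, WT LPS and cGAS-/- LPS). The deletion is systemic, so the cells lacked cGAS throughout their development. The study's methods give the same age for all mice and a C57BL/6J background for the cGAS-/- mice. The WT mice were purchased and the cGAS-/- mice came from another laboratory, so genotype and source cannot be told apart. The sample labels give LPS at 100 ng/mL for 1 h and name neutrophils in the extraction step, whereas the methods of the study describe macrophages, a higher dose and a full day of exposure, so the dose and time behind the LPS values are not settled. In the study, replicates within a group are described as technical, and p-values therefore measure the spread between these samples, which need not be the spread between mice. In bulk RNA, fewer expressing cells and less RNA per cell cannot be told apart.

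The deposited values were taken as TPM, a transcript abundance corrected for length and depth, averaged over the annotated transcripts of a symbol, and the number of reads behind them is unknown. Because of the averaging, levels are compared between samples and not between genes. Log2 differences are on the log2(TPM + 1) scale, which understates the change of genes with low values, and a call means an adjusted p (Benjamini-Hochberg) under 0.05 in a limma fit across all 11887 genes. The macrophage marker list (13 of 17 genes in the table) summed to between 24938 and 37948 TPM in every sample. The summed lists of other cell types reached at most 403 TPM for neutrophils and myeloid precursors (9 of 10 genes), 26.8 for erythroid cells (6 of 7), 8.63 for stromal and endothelial cells (7 of 7), 4.94 for B cells (6 of 8), 2.23 for dendritic cells (7 of 7) and 1.25 for T and NK cells (9 of 9). The B cell list summed to 2.39 to 4.94 TPM in WT samples and to 0.358 to 1.95 in cGAS-/- samples, and the stromal list to 5.88 to 8.63 and 2.60 to 4.36. In UT the neutrophil and precursor list also separated the genotypes, at 172.8 to 243 TPM in WT and 85.4 to 156.8 in cGAS-/- cells, and so did the T and NK list, at 0.942 to 1.25 and 0.683 to 0.909. The macrophage list separated them in UT, at 24938 to 25950 TPM in WT and 26062 to 28645 in cGAS-/- cells, and with LPS, at 25471 to 29153 and 37612 to 37948. The part of these lists in the differences between genotypes was not tested.

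The WT LPS samples had the largest SD of the 4 groups in 9 of the 10 genes (all but Trex1), as the plot of their spread shows. WT LPS replicate 3 lay below the mean of the other 2 samples by 2.42 on the log2 scale for Zbp1, by 2.15 for Ifih1, by 1.42 for Samhd1, by 1.30 for Tbk1 and by 1.09 for Mavs. For Trex1 the same differences lay between -0.04 and 0.03 for the 3 samples. The total of all values was 709802 in that sample and between 447189 and 503156 in the other 11, and its factor in the trimmed mean of M values (TMM), a scaling for composition, was 0.367 against 0.778 and 1.11 in the other WT LPS samples. The median protein-coding gene lay below the other samples by 1.05 among the 1996 genes with the shortest transcripts and by 0.61 among the 1997 with the longest. For the 10 genes the value of each WT LPS sample is therefore given, with the calls that changed when replicate 2 or replicate 3 of this group was left out.

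**Figure D1:**
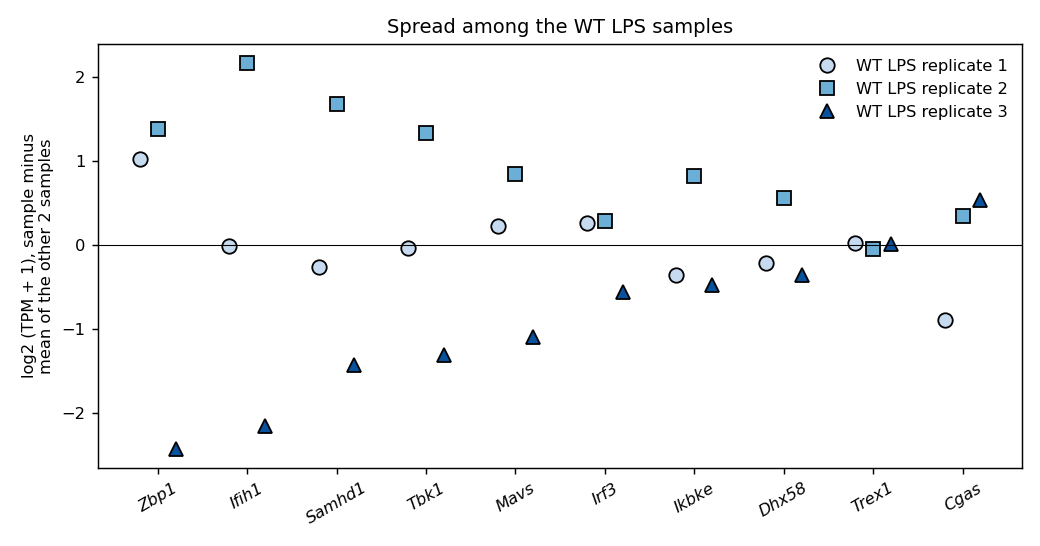
Each point is 1 WT LPS sample, plotted as log2(TPM + 1) minus the mean of the other 2 WT LPS samples (vertical axis), for the 10 genes (horizontal axis, ordered by replicate 3). Replicate 3 ranges from -2.42 for Zbp1 to 0.54 for Cgas, while the 3 samples meet near 0 for Trex1.

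Cgas, the targeted gene (chromosome 9, 78337802 to 78350535, minus strand, GRCm39), was used as a check of the labels. It lay at 2.67, 2.89 and 2.68 TPM in the WT UT samples and at 1.19, 2.88 and 3.25 TPM in the WT LPS samples. In cGAS-/- UT it lay at 0.084, 0.11 and 0.29 TPM, and in cGAS-/- LPS at 0.070, 0.092 and 0.098 TPM. Every cGAS-/- sample was below every WT sample, with a mean ratio of 0.0588 in UT and 0.0355 with LPS, and no sample went against its label. The log2 difference was -1.69 (SE 0.23, limma adjusted p = 0.00239) in UT and -1.60 (SE 0.23, limma adjusted p = 0.00508) with LPS. The latter was not called when only the 6 samples compared were fitted (adjusted p = 0.211), where 0.0421% of all genes were called. An annotated long non-coding RNA on the opposite strand, Gm68924, overlaps 34.4% of the exon bases of Cgas, and whether the counting used strand is not stated, so the residual values in cGAS-/- cells cannot be assigned to one of them. LPS gave no call for Cgas in WT cells (log2 difference -0.18, SE 0.23, limma adjusted p = 0.562), and its sign turned under TMM factors (0.34), under quantile normalization (0.37) and without WT LPS replicate 1 (0.12).

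The genes whose values over the 12 samples were most like those of Cgas were AA474408, Lars2 and Mir6236 (Pearson r of 0.9962, 0.9933 and 0.9860). Mir6236 lay at 15586 to 16975 TPM in WT UT, at 8636 to 32731 TPM in WT LPS, and at 573 to 676 TPM in all 6 cGAS-/- samples. Lars2, the mitochondrial leucyl-tRNA synthetase, lay at 58.7 to 59.9 TPM in WT UT, at 26.1 to 117 TPM in WT LPS, and at 2.52 to 4.17 TPM in the cGAS-/- samples. The rows of Mir6236 and Lars2 are known to share sequence with ribosomal RNA. They separated the genotypes as completely as the deleted gene did, and the part of such sequence in the values of the other genes was not tested.

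**Figure D2:**
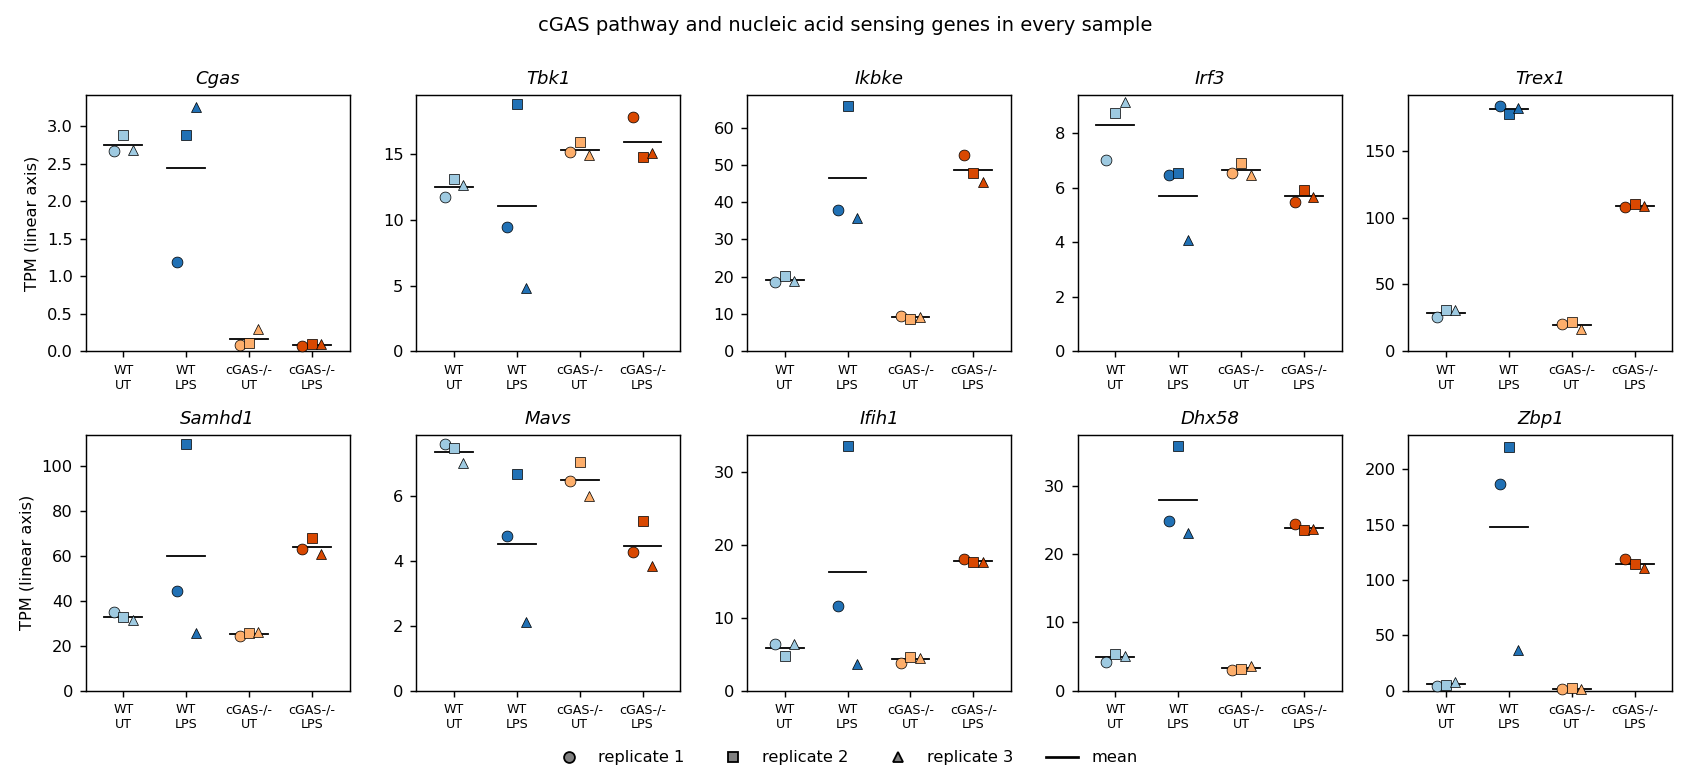
TPM (vertical axis, linear, from 0) of the 10 genes in each of the 12 samples, by group (horizontal axis). Symbols mark replicates 1 to 3 and the line the group mean. Zbp1, Dhx58, Trex1 and Ikbke are higher in every LPS sample than in every UT sample of the same genotype, and the WT LPS samples of Samhd1, Ifih1, Tbk1 and Zbp1 are spread widely.

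With LPS, 4 of the 9 genes other than Cgas rose in WT cells (Ikbke, Trex1, Dhx58 and Zbp1) and 5 of 9 rose in cGAS-/- cells (the same genes and Ifih1). Over the 24 alternatives between 3 and 6 genes rose in WT and between 4 and 6 in cGAS-/- cells, and the number called in either direction was the same as here in 18 of 24 for WT and in 3 of 24 for cGAS-/- cells. None of the 9 was called lower in either genotype, although Irf3 and Mavs had an unadjusted p under 0.05 in WT cells. Over all genes tested, 4.31% were called higher and 23.3% lower in WT cells, and 4.76% higher and 9.06% lower in cGAS-/- cells. The median log2 difference of the 9 genes was 0.92 in WT and 1.83 in cGAS-/- cells, where the median of all genes tested was -0.46 and -0.20. With the stricter rule of the study's methods, a log2 difference beyond 2 as well, 3 genes remained in WT (Trex1, Dhx58 and Zbp1) against 1.43% of all genes, and 4 in cGAS-/- (Ikbke in addition) against 1.94%.

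Zbp1 (chromosome 2, 173033815 to 173060724, minus strand), which senses Z-form DNA and RNA and can start necroptosis, had the largest LPS difference of the 10 genes in both genotypes. It lay at 3.81, 4.71 and 8.15 TPM in WT UT and at 187, 220.4 and 37.1 TPM in WT LPS. The cGAS-/- samples lay at 1.77, 2.41 and 1.03 TPM in UT and at 119, 114 and 111 TPM with LPS. Every LPS sample exceeded every UT sample, which held for 5.31% of all genes tested in WT and 15.5% in cGAS-/- cells, and the WT LPS samples were split between a high pair and replicate 3 far below it. The log2 difference was 4.21 (SE 0.56, limma adjusted p = 0.00037) in WT and 5.43 (SE 0.56, limma adjusted p = 7.54e-05) in cGAS-/- cells. It remained called in each of the 24 alternatives tried, in either genotype.

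Trex1 (chromosome 9, 108887001 to 108888802, minus strand), the cytosolic exonuclease that degrades DNA before cGAS can bind it, rose to a near-constant level in each genotype. It lay at 25.3, 31.1 and 30.5 TPM in WT UT and at 183, 178 and 182 TPM in WT LPS. The cGAS-/- samples lay at 20.7, 21.6 and 16.9 TPM in UT and at 108, 110.2 and 109 TPM with LPS. The log2 difference with LPS was 2.61 (SE 0.21, limma adjusted p = 1.05e-05) in WT and 2.41 (SE 0.21, limma adjusted p = 1.83e-05) in cGAS-/- cells, and each was called in all 24 alternatives. All exon bases of Trex1 (100%) lie within exons of Atrip, an upstream gene of the same strand that encodes a partner of the ATR checkpoint kinase, so reads may have been divided between them. Atrip was listed at 0.780 to 0.942 TPM in WT UT, 0.681 to 3.34 in WT LPS, 0.865 to 1.30 in cGAS-/- UT and 0.762 to 0.896 in cGAS-/- LPS, and how the reads were divided was not tested.

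Dhx58 (chromosome 11, 100585710 to 100595097, minus strand), the member of the RIG-I family that lacks the signalling domains and modulates the others, varied less between the WT LPS samples than the other RNA sensor, Ifih1. It lay at 4.25, 5.39 and 5.05 TPM in WT UT and at 24.9, 35.9 and 23.2 TPM in WT LPS. The cGAS-/- samples lay at 2.94, 3.17 and 3.61 TPM in UT and at 24.5, 23.7 and 23.7 TPM with LPS. The groups did not overlap, and the log2 difference was 2.28 (SE 0.22, limma adjusted p = 3.81e-05) in WT and 2.56 (SE 0.22, limma adjusted p = 1.83e-05) in cGAS-/- cells, again called in all 24 alternatives in both.

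Ikbke (chromosome 1, 131182080 to 131207346, minus strand) encodes IKK-epsilon, the inducible relative of TBK1. It lay at 18.6, 20.1 and 19.0 TPM in WT UT and at 37.8, 65.8 and 35.7 TPM in WT LPS. In cGAS-/- cells it lay at 9.54, 8.53 and 9.25 TPM in UT and at 52.6, 47.7 and 45.3 TPM with LPS. The cGAS-/- cells thus started below and ended within the range of the WT cells. The log2 difference with LPS was 1.17 (SE 0.25, limma adjusted p = 0.00681) in WT and 2.29 (SE 0.25, limma adjusted p = 0.000115) in cGAS-/- cells. The WT value was called in 23 of 24 alternatives and not with only the 6 samples compared (adjusted p = 0.13).

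Tbk1 (chromosome 10, 121382360 to 121422848, minus strand), the constitutive kinase of the pair, gave no call. It lay at 11.7, 13.1 and 12.7 TPM in WT UT and at 9.50, 18.8 and 4.84 TPM in WT LPS, with a log2 difference of -0.34 (95% interval -1.13 to 0.45) that turned to 0.29 with TMM factors and to 0.13 with quantile normalization. In cGAS-/- cells it lay at 15.2, 15.9 and 14.9 TPM in UT and at 17.8, 14.8 and 15.1 TPM with LPS (log2 difference 0.04, 95% interval -0.74 to 0.83). The WT LPS samples lay on both sides of the UT samples, and the intervals leave room for a change of about this size in either direction.

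Ifih1 (chromosome 2, 62425714 to 62476607, minus strand) encodes MDA5, the sensor of long double-stranded RNA. It lay at 6.34, 4.69 and 6.34 TPM in WT UT and at 11.7, 33.6 and 3.70 TPM in WT LPS. In cGAS-/- cells it lay at 3.73, 4.63 and 4.47 TPM in UT and at 18.1, 17.6 and 17.6 TPM with LPS. A WT LPS sample was below all WT UT samples, whereas the cGAS-/- groups were far apart. The log2 difference was 0.92 (SE 0.54, limma adjusted p = 0.212) in WT, which was not called, and 1.83 (SE 0.54, limma adjusted p = 0.0439) in cGAS-/- cells. The WT value was called in 4 of 24 alternatives, namely 1.51 with TMM factors (adjusted p = 0.0159), 1.42 with quantile normalization (0.0217), 1.27 with weights per sample (0.0342) and 1.63 without WT LPS replicate 3 (0.00456). In the fit to all 12 samples the cGAS-/- call stood close to the threshold. That fit shares its estimate of spread over the 4 groups. The SD was 15.5 TPM in WT LPS, against 0.479 in cGAS-/- UT and 0.281 in cGAS-/- LPS. Over the 24 alternatives the adjusted p lay between 1.07e-06 and 0.129, with a call in 10. Ifih1 was among the genes called with only the 6 samples compared, where 44.6% of all genes were called. The call was lost without WT LPS replicate 1 (adjusted p = 0.0537).

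Samhd1 (chromosome 2, 156939453 to 156977187, minus strand), a dNTP hydrolase that depletes the building blocks of viral DNA synthesis, varied from sample to sample as Ifih1 did. It lay at 35.0, 32.7 and 31.3 TPM in WT UT and at 44.3, 109.8 and 25.5 TPM in WT LPS. In cGAS-/- cells it lay at 24.4, 25.6 and 26.2 TPM in UT and at 63.2, 68.0 and 60.7 TPM with LPS. The log2 difference was 0.59 (SE 0.41, limma adjusted p = 0.29) in WT and 1.30 (SE 0.41, limma adjusted p = 0.0607) in cGAS-/- cells, and neither was called. The WT value was called in 2 of 24 alternatives, namely 1.27 with TMM factors (adjusted p = 0.00279) and 1.06 without WT LPS replicate 3 (0.0174). The cGAS-/- value was called in 7 of 24 alternatives, among them those without WT LPS replicate 2 or replicate 3. With only the 6 samples compared its adjusted p was 1.86e-05, where 44.6% of all genes were called. Without replicate 3, Ifih1 and Samhd1 thus brought the WT count to 6 of 9, all higher, where 8.26% of all genes were called higher.

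Irf3 (chromosome 7, 44647033 to 44652272, plus strand) encodes the transcription factor that TBK1 activates, and Mavs (chromosome 2, 131075442 to 131096740, plus strand) the adaptor of the RNA sensors. Both had their LPS samples below their UT samples without a call. Irf3 lay at 7.01, 8.76 and 9.14 TPM in WT UT, at 6.45, 6.55 and 4.10 TPM in WT LPS, at 6.52, 6.92 and 6.48 TPM in cGAS-/- UT and at 5.46, 5.93 and 5.65 TPM in cGAS-/- LPS. Mavs lay at 7.61, 7.46 and 7.03 TPM in WT UT, at 4.75, 6.66 and 2.12 TPM in WT LPS, at 6.45, 7.05 and 6.0 TPM in cGAS-/- UT and at 4.28, 5.22 and 3.84 TPM in cGAS-/- LPS. In both genes, every LPS sample was below every UT sample of its genotype, a state that held for 32.9% of all genes tested in WT and 40.2% in cGAS-/- cells. The log2 difference in WT was -0.49 (SE 0.21, limma adjusted p = 0.104) for Irf3 and -0.70 (SE 0.29, limma adjusted p = 0.0944) for Mavs, beside a median of -0.46 over all genes, and with TMM factors the value of Irf3 turned to 0.12, that of Mavs shrank to -0.13 and the median moved to -0.09. Without WT LPS replicate 2, Tbk1, Irf3 and Mavs were called lower in WT cells, which brought the count there to 7 of 9, but 43.1% of all genes were called lower in that fit. In cGAS-/- cells Mavs was called lower in 3 of 24 alternatives. These were without WT LPS replicate 3 (adjusted p = 0.0299), with only the samples compared (0.0201) and with weights per sample (0.00259). In these fits 30.8%, 44.6% and 48.3% of all genes were called in either direction.

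**Figure D3:**
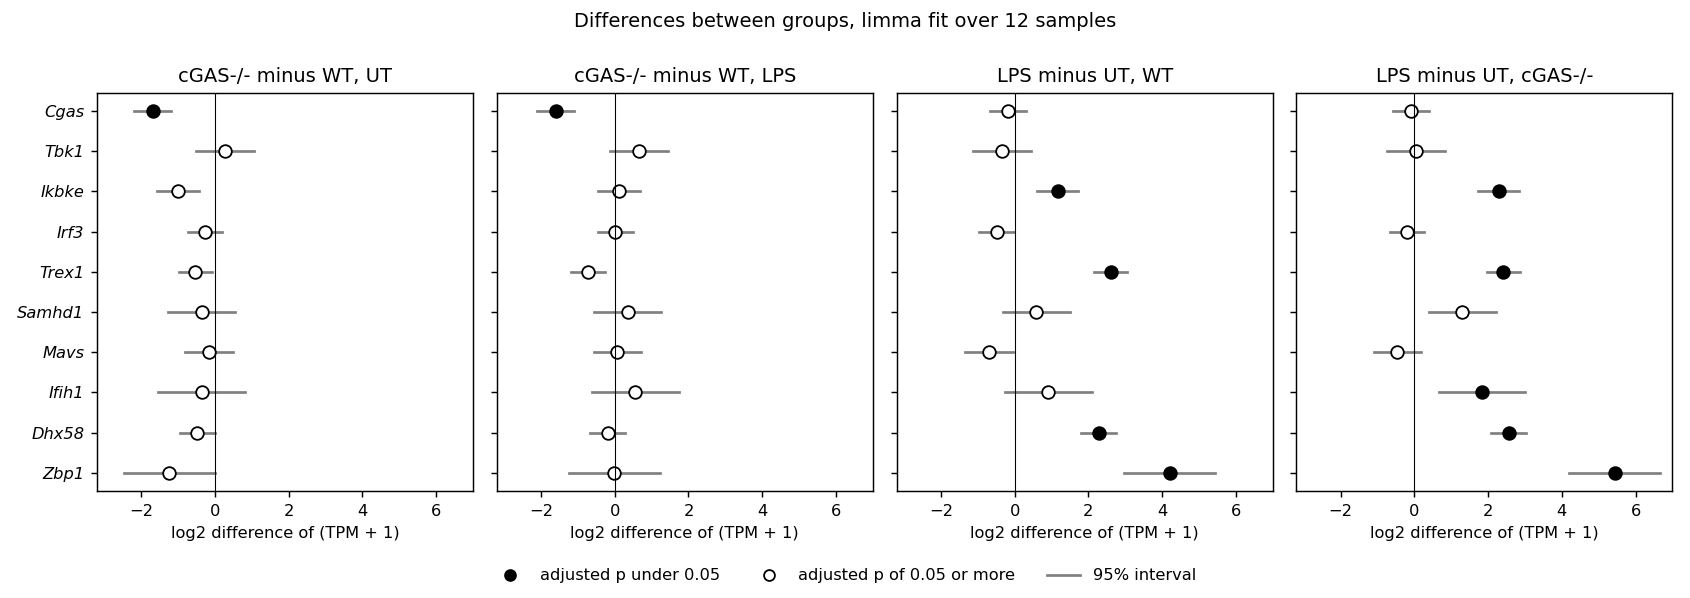
Log2 differences of TPM + 1 (horizontal axes) of the 10 genes (vertical axis) in 4 comparisons, from a limma fit over 12 samples. Bars are 95% intervals and filled points have an adjusted p under 0.05. Beside Cgas, no gene is called between genotypes, and 4 in WT and 5 in cGAS-/- cells are called higher with LPS.

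In UT cells, where the comparison asks whether the sensing genes differ at rest without cGAS, none of the 9 genes was called in the limma fit, and 3 had an unadjusted p under 0.05 (Ikbke, Trex1 and Zbp1). Over all genes, 1.83% were called. The values nevertheless stood apart in most genes. All 3 cGAS-/- samples were below all 3 WT samples in 7 of 9 genes and above them in 1 (Tbk1), where 18.4% of all genes tested were in the first state and 12.1% in the second. The median log2 difference was -0.36, against -0.04 over all genes.

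The UT difference was widest for Zbp1 (mean ratio 0.312, log2 difference -1.24, SE 0.56, limma adjusted p = 0.619) and Ikbke (mean ratio 0.474, log2 difference -1.0, SE 0.25, limma adjusted p = 0.0928). The mean ratio was 0.662 for Dhx58, 0.682 for Trex1, 0.739 for Ifih1, 0.77 for Samhd1 and 0.80 for Irf3. Mavs, with a ratio of 0.882, was the gene whose groups overlapped. Tbk1 had the opposite sign, with a ratio of 1.23.

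The count in UT moved with the way the spread was taken. The fit across all samples shares one estimate over the 4 groups, the widely spread WT LPS samples among them. From the 6 UT samples alone, 4 of 9 genes were called, with Ikbke, Trex1 and Samhd1 lower and Tbk1 higher in cGAS-/- cells, where 10.4% of all genes were called. With limma's weights per sample, Ikbke, Trex1, Dhx58 and Zbp1 were called lower and none higher, where 11.5% of all genes were called. Ikbke and Trex1 were called in both of these fits, and the adjusted p of Ikbke ranged from 3.5e-05 to 0.338 over the 24 alternatives. Without WT LPS replicate 3 the count was 3 (Ikbke, Trex1 and Zbp1), where 5.33% of all genes were called, and without WT LPS replicate 2 it was 1 (Ikbke), where 2.87% were.

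With LPS, none of the 9 genes was called between genotypes, 1 had an unadjusted p under 0.05 (Trex1), and 2.36% of all genes tested were called. Trex1 was also the gene whose groups did not overlap, with all cGAS-/- samples lower, where 17.7% of all genes did not overlap in either direction. Its mean was 109 ± 1.22 TPM in cGAS-/- and 181 ± 3.17 TPM in WT (SD, n = 3), a ratio of 0.601, with a log2 difference of -0.73 (95% interval -1.18 to -0.28, limma adjusted p = 0.111). It was called in 4 of 24 alternatives, namely quantile normalization, the fit without a variance trend, and without WT LPS replicate 2 or replicate 3.

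For the other 8 genes the genotypes overlapped with LPS. The log2 difference was 0.66 for Tbk1 (95% interval -0.13 to 1.45), 0.12 for Ikbke (-0.44 to 0.67), 0.02 for Irf3 (-0.45 to 0.48) and 0.07 for Mavs (-0.57 to 0.71). It was 0.35 for Samhd1 (-0.56 to 1.25), 0.56 for Ifih1 (-0.62 to 1.74), -0.19 for Dhx58 (-0.67 to 0.29) and -0.01 for Zbp1 (-1.25 to 1.23). These intervals are wide, and the direction was not settled: under TMM factors Ikbke (-0.25), Irf3 (-0.31), Samhd1 (-0.02) and Mavs (-0.22) turned negative, and without WT LPS replicate 3 Ifih1 did (-0.16). Without WT LPS replicate 2, Tbk1, Samhd1 and Ifih1 were called higher in cGAS-/- cells, and of the 24 alternatives that one alone called any of these 3 genes. In it 23.9% of all genes were called higher and 3.98% lower. Trex1 was called lower there, as in the other 3 alternatives named above.

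Whether the LPS response itself differed between genotypes was tested by the interaction term, and none of the 9 genes was called, against 0.9% of all genes. Ikbke had an unadjusted p under 0.05, and its LPS difference was larger in cGAS-/- cells by 1.12 on the log2 scale (95% interval 0.33 to 1.91, limma adjusted p = 0.254). It was called with weights per sample and without WT LPS replicate 2. Without that sample Samhd1 (1.27, adjusted p = 0.0294) and Ifih1 (1.64, adjusted p = 0.0494) were called as well, so that the count was 3 of 9, where 12.6% of all genes were called. The difference of LPS effects was 1.23 for Zbp1 (-0.52 to 2.98) and -0.20 for Trex1. For Trex1 the interval includes 0 and runs from -0.84 to 0.44, so the genotypes are not shown to respond alike.

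The promoters of Ifih1 and Samhd1 are shown because these genes had the most similar values of any pair among the 10 (Pearson r of 0.9870 over 12 samples) and moved together from sample to sample. The windows hold 250 bases before and 50 from the start site on, from RefSeq on GRCm38.p6, on the strand of the gene. Capitals mark a match to the interferon-stimulated response element searched as GAAA and GAAA with 2 bases between in Ifih1, and to the gamma-activated site searched as TTC and GAA with 3 bases between in Samhd1.
Ifih1 (chr2:62646206-62646505, minus strand): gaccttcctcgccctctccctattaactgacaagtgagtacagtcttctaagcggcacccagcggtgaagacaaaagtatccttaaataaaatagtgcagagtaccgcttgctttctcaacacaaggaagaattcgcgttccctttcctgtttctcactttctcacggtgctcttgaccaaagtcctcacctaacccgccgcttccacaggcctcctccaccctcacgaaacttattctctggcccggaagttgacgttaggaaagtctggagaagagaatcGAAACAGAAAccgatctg
Samhd1 (chr2:157135047-157135346, minus strand): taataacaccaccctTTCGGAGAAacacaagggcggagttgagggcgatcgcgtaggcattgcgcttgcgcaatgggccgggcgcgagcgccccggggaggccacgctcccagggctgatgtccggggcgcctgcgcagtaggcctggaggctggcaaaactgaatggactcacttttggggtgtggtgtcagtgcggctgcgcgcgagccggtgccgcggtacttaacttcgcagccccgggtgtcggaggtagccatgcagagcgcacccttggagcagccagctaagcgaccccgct
The match in Ifih1 reads GAAACAGAAA at bases 33 to 42 after the start, and the match in Samhd1 reads TTCGGAGAA at bases -235 to -227. Of 32851 RefSeq mouse promoters of this length, 3.44% hold the first motif and 8.3% the second on either strand, and a kappa-B element, searched as GGG and TTCC with 3 bases between, is in 5.56%. Cgas holds the kappa-B letters (GGGTGGTTCC, bases -81 to -72). Promoters were matched for 8 of the 10 genes, in 9 sequences, and those of Ikbke, Irf3, Mavs, Tbk1 and Trex1 held none of the 3 motifs. A match describes letters and is not a measured binding site.

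By the same measure of likeness over 12 samples, the 3 genes nearest to Zbp1 were Irf7, Oas1a and Oasl2 (r of 0.9949, 0.9943 and 0.9929), and those nearest to Dhx58 were Ifi209, Ifi206 and Ifi211 (0.9954, 0.9951 and 0.9949). Trex1 was nearest to Slfn1, Cxcl10 and Ifi47 (0.9950, 0.9941 and 0.9920), and Ikbke to Siglec1, Sp100 and Rilpl2 (0.9921, 0.9811 and 0.9801). Ifih1 and Samhd1 shared Tank (0.9853 and 0.9811), which encodes an adaptor of TBK1, and were otherwise nearest to Trim30a and Met (0.9851 and 0.9865). Tbk1 was nearest to Dhx38 (0.9774), Irf3 to Hmg20b (0.9528) and Mavs to B3galnt1 (0.9811). The 12 points share the LPS difference and the spread of the WT LPS samples, so these values are descriptions.

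The wider pathway was described by 99 other genes in 9 lists, of which 74 were in the table and 71 passed the filter. None of the 71 was called between genotypes in UT or for the difference of LPS effects. With LPS, 2 were called between genotypes, both lower in cGAS-/- cells (Cxcl10 and Ifnb1), where 2.36% of all genes tested were called in either direction. Against UT, LPS gave 14 risers and 12 that fell among the 71 in WT, beside 4.31% higher and 23.3% lower over all genes tested. In cGAS-/- cells 16 rose and 8 fell, beside 4.76% and 9.06%. The median log2 difference of the 71 was -0.41 in WT and -0.13 in cGAS-/- cells, near the medians of all genes (-0.46 and -0.20).

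The list of interferon and its early outputs had median log2 differences of 5.55 in WT and 5.47 in cGAS-/- cells. The medians of all genes tested were -0.46 and -0.20. Where 4.31% and 4.76% of all genes were called higher, all 4 tested genes of this list were. Isg15, a ubiquitin-like modifier, was one of them, at 29.2 to 35.3 TPM in WT UT and 2866, 1663 and 341 TPM in WT LPS, and it rose by 5.13 in WT (limma adjusted p = 0.000147) and by 5.82 in cGAS-/- cells (6.66e-05). Ifnb1, the interferon that this pathway transcribes, was listed at 0 in 2 WT UT samples and at 0.301 TPM in the other, and at 0 in all cGAS-/- UT samples. It lay at 8.43, 7.21 and 9.60 TPM in WT LPS and at 3.42, 3.24 and 2.58 TPM in cGAS-/- LPS, so the genotypes did not overlap. The difference between genotypes was -1.21 on the log2 scale (SE 0.18, limma adjusted p = 0.00597). It was not called with a pseudocount of 0.1 (adjusted p = 0.196), with only the 6 samples compared (adjusted p = 0.356) or with weights per sample (adjusted p = 0.0666). The fit of only the 6 samples compared called 0.0421% of all genes.

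Cxcl10, a chemokine gene that IRF3 and interferon both induce, lay at 127, 131 and 93.8 TPM in WT LPS and at 45.7, 42.1 and 39.7 TPM in cGAS-/- LPS. In UT it lay at 0.717 to 1.12 TPM in WT and at 0.138 to 0.33 TPM in cGAS-/- cells. The LPS difference between genotypes was -1.43 (SE 0.21, limma adjusted p = 0.00582). The call was lost with only the 6 samples compared (adjusted p = 0.29), where 0.0421% of all genes were called. Ccl5, another such chemokine gene, did not separate the genotypes with LPS, at 10512, 7327 and 3957 TPM in WT and 6426, 6546 and 6265 TPM in cGAS-/- cells, and rose by 8.36 in WT (limma adjusted p = 8.02e-07) and 8.24 in cGAS-/- cells (4.69e-07).

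Usp18 encodes the deconjugase of ISG15 that also damps interferon receptor signalling, and Irf7 the inducible relative of IRF3. Usp18 lay at 2.73 to 4.43 TPM in WT UT, at 76.2, 108 and 122 TPM in WT LPS, at 0.844 to 1.74 TPM in cGAS-/- UT and at 50.9, 49.7 and 49.0 TPM in cGAS-/- LPS. It rose by 4.55 in WT (limma adjusted p = 1.58e-06) and 4.54 in cGAS-/- cells (1.31e-06). Irf7 lay at 134, 179 and 41.3 TPM in WT LPS and at 91.4, 88.7 and 86.5 TPM in cGAS-/- LPS, from at most 4.44 and 1.27 TPM in UT. It rose by 4.465 in WT (limma adjusted p = 4.57e-05) and by 5.42 in cGAS-/- cells (1.27e-05). Its low WT LPS sample is replicate 3, as for Zbp1.

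**Figure D4:**
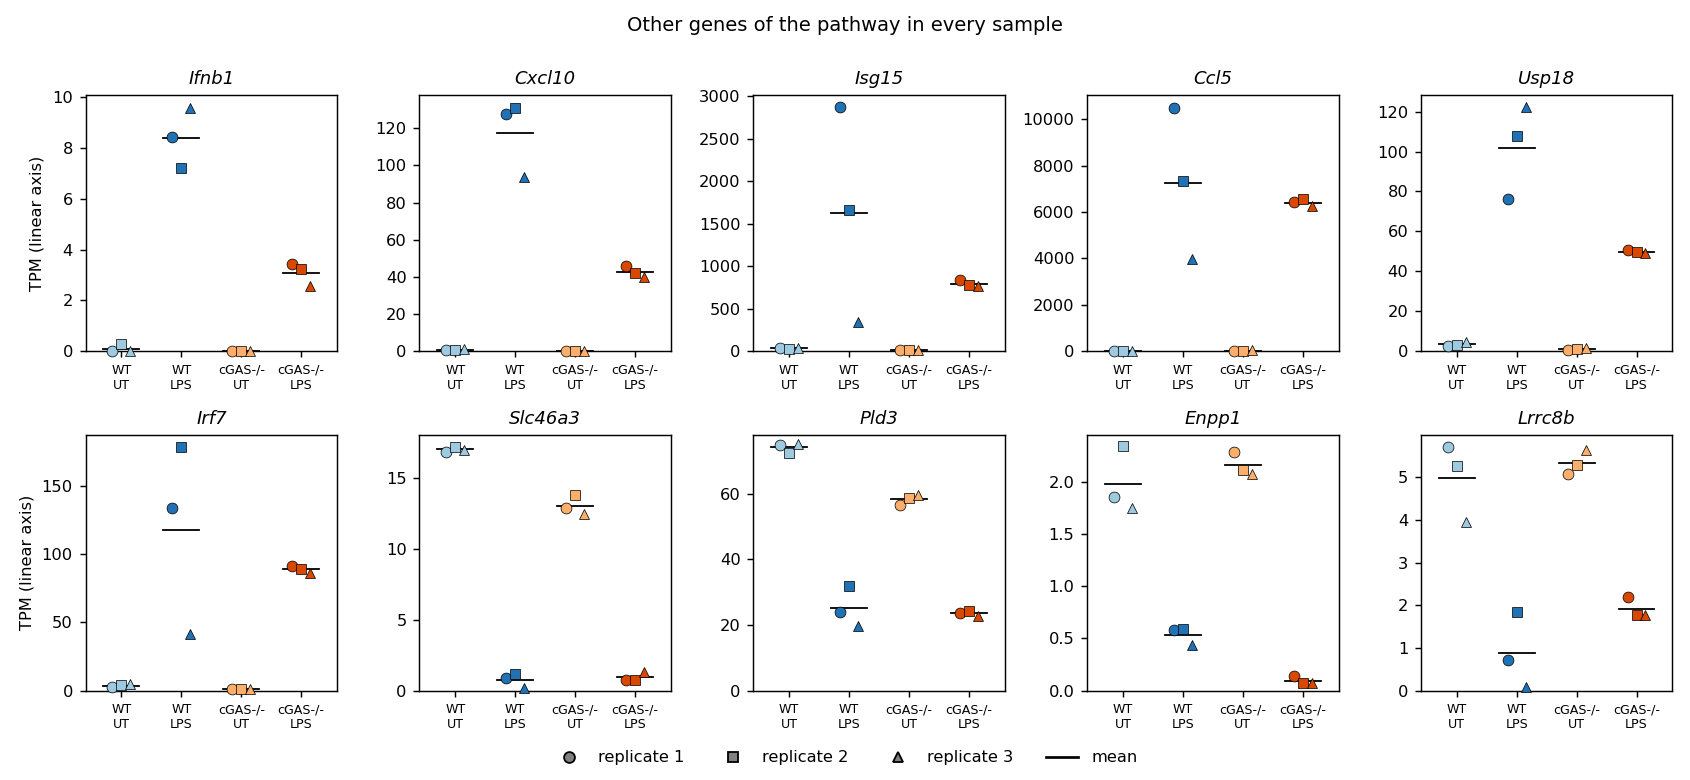
TPM (vertical axis, linear, from 0) of 10 other genes of the pathway in each sample, by group (horizontal axis). Symbols mark replicates 1 to 3 and the line the group mean. Ifnb1, Cxcl10 and Usp18 with LPS lie lower in all cGAS-/- samples than in all WT samples, and Slc46a3, Pld3, Enpp1 and Lrrc8b are lower with LPS in both genotypes.

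Among the RNA sensors and their regulators, 3 of 9 tested genes rose in WT and 4 of 9 in cGAS-/- cells, and none fell, beside 4.31% and 4.76% higher and 23.3% and 9.06% lower over all genes. Ddx58, which encodes RIG-I, rose by 2.27 in WT (SE 0.33, limma adjusted p = 0.000648) and by 2.55 in cGAS-/- cells (SE 0.33, limma adjusted p = 0.00034). Among the DNA sensors and co-factors, 1 of 12 rose in each genotype (Ifi204), and 2 fell in WT (Dhx9 and Hmgb1), a share under the 23.3% of all genes that fell there. Aim2, the inflammasome DNA sensor, was not called and lay at 5.88 to 8.43 TPM in WT UT and 5.13 to 12.8 TPM in WT LPS.

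Of the 8 tested genes for cGAMP transport and breakdown, 5 fell in WT, where 23.3% of all genes fell, and 4 fell while 1 (Lrrc8c) rose in cGAS-/- cells, where 9.06% of all genes fell. Slc46a3, a lysosomal transporter of the family that includes cGAMP importers, lay at 16.9 to 17.2 TPM in WT UT and 0.164 to 1.15 TPM in WT LPS, a log2 difference of -3.42 (SE 0.24, limma adjusted p = 5.62e-06), and fell by 2.88 in cGAS-/- cells (limma adjusted p = 1.64e-05). Enpp1, the hydrolase that breaks down extracellular cGAMP, lay at 1.75 to 2.34 TPM in WT UT and 0.441 to 0.586 TPM in WT LPS, and at 2.08 to 2.29 and 0.0679 to 0.136 TPM in cGAS-/- cells. It fell by 0.95 in WT (limma adjusted p = 0.000838) and by 1.53 in cGAS-/- cells (3.65e-05), and the WT call was lost with quantile normalization (adjusted p = 0.0755) and with only the 6 samples compared (adjusted p = 0.0571). Lrrc8b, a subunit of the volume-regulated anion channels that can pass cGAMP, lay at 3.94 to 5.72 TPM in WT UT and 0.0726 to 1.84 TPM in WT LPS, and fell by 1.77 in WT (limma adjusted p = 0.00167) and by 1.12 in cGAS-/- cells (0.0296), with the WT call lost with only the 6 samples compared (adjusted p = 0.0528).

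Of the 6 tested nuclease and clearance genes, none rose, 3 fell in WT and 2 in cGAS-/- cells, beside the same shares of 23.3% and 9.06% over all genes. Trex1, also a nuclease, went the other way, as given above. Pld3, a lysosomal exonuclease, lay at 72.5 to 75.3 TPM in WT UT and 19.8 to 32.0 TPM in WT LPS, and fell by 1.54 in WT (limma adjusted p = 0.000609) and by 1.28 in cGAS-/- cells (0.00258), with the WT call lost with only the 6 samples compared (adjusted p = 0.0561). Of the 9 tested adaptors of TBK1 and IKK-epsilon, 2 rose in each genotype, beside 4.31% and 4.76% of all genes. None fell in WT and 1 (Optn) fell in cGAS-/- cells. Optn lay at 3.25 to 4.39 TPM in cGAS-/- UT and 0.615 to 0.763 TPM in cGAS-/- LPS, and fell by 1.51 there (limma adjusted p = 0.0047). That call was lost with TMM factors (adjusted p = 0.0887) and with quantile normalization (adjusted p = 0.0689). In WT the Optn difference was -0.45 (limma adjusted p = 0.253) and was not called. The median of all genes lay below 0 with LPS against UT in both genotypes, and the called falls of these named genes are larger than it.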

How the data were processed

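RNA of 12 samples of bone marrow-derived macrophages was sequenced on Illumina instruments from stranded libraries. Per the study's methods, STAR (on the GRCm39 build) served for mapping and Kallisto for quantification, with versions not given in the sources used here. The deposited values were taken as TPM, averaged by the authors over the transcripts of each symbol. No source names this unit, which was inferred from how the values behave. TPM keeps no depth, so no counting error is given and no test for counts was run. Samples were grouped by genotype and treatment from the labels.

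Values were taken as log2(TPM + 1) after a filter of 1 TPM, on values rescaled to a total of 1000000 for the filter only, in at least 3 samples. Limma 3.58.1 in R 4.3.3 (lmFit, eBayes with a trend) was fitted with 4 group means over 12 samples, and p-values were adjusted by the Benjamini-Hochberg method over all 11887 genes tested. The fit was tested on simulated data. The 10 genes and all lists were chosen with earlier results of these data known. Genes named are those 10, in each comparison at most 4 called genes of the wider lists in each direction by smallest adjusted p, and the 3 genes most correlated with each of the 10. Aim2, Atrip, Ddx58, Ifi204, Dhx9, Hmgb1, Lrrc8c and Isg15 were added after their values were seen. Gene positions and overlaps are from the GENCODE annotation of GRCm39, and promoters from RefSeq on GRCm38.p6. Alternatives were other pseudocounts, filters and scalings, weights per sample, a replicate block, subsets of samples or genes and each sample left out. TMM factors were computed on TPM. The table stops on chromosome 13, and genes beyond it were not analysed here. One gene of the wider lists is not reported here.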

Additional observations from a re-analysis of the deposited data

Results flagged for a closer look

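Samhd1 and Ifih1 were singled out because every cGAS-/- UT sample lay below the WT UT mean while every cGAS-/- LPS sample lay above the WT LPS mean. The interaction term, which tests that difference, gave a log2 difference of 0.71 for Samhd1 and 0.92 for Ifih1, with a limma adjusted p of 0.665 for each, and neither was called. It was called for both without WT LPS replicate 2 (1.27, adjusted p = 0.0294, and 1.64, adjusted p = 0.0494). The WT LPS mean rests on samples from 25.5 to 109.8 TPM for Samhd1 and from 3.70 to 33.6 TPM for Ifih1, and without WT LPS replicate 3 the LPS difference between genotypes was -0.13 and -0.16.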

How the results depend on the processing

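The counts of called genes among the 9 genes other than Cgas moved with several settings. Between genotypes in UT the count of 0 became 1 with TMM factors and with quantile normalization (Ikbke), where 1.83% and 1.89% of all genes were called, and 4 with only the samples compared and with weights per sample (10.4% and 11.5%). It ran from 0 to 3 when a sample was left out (1.03% to 5.33%). Between genotypes with LPS it became 1 with quantile normalization and with no trend (Trex1, 4.64% and 2.31%), and ran from 0 to 4 when a sample was left out (0.648% to 27.9%). For LPS against UT the WT count of 4 (27.6%) was 3 with only the samples compared (6.02%) and 6 with TMM factors (20.0%), and ran from 4 to 7 when a sample was left out (16.5% to 48.7%). The cGAS-/- count of 5 (13.8%) held in 3 of 24 alternatives, was 4 to 7 in all but 1 of the others, and became 8 with only the samples compared (44.6%), adding Samhd1 as higher and Irf3 and Mavs as lower. For the difference of LPS effects it became 1 with weights per sample (Ikbke, 2.46%) and ran from 0 to 3 when a sample was left out (0.353% to 12.6%). The values gave no sign that the replicate numbers pair the samples, as the correlation of deviations between same-numbered samples lay between -0.0315 and 0.0383. This cannot show that the samples were prepared without pairing. The replicate block left the counts at 0, 0, 4 and 0 in both genotype comparisons, in WT LPS against UT and in the difference, and made it 4 in cGAS-/- LPS against UT, where Ifih1 had an adjusted p of 0.0588.

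Directions turned only for values not called in the fit to all 12 samples, though Tbk1 and Irf3 in WT and Samhd1 and Ifih1 between genotypes with LPS were called without WT LPS replicate 2. Between genotypes with LPS, TMM factors gave -0.25 for Ikbke, -0.31 for Irf3, -0.022 for Samhd1 and -0.22 for Mavs, quantile normalization gave -0.014 for Ikbke, -0.25 for Irf3 and -0.20 for Mavs, weights per sample gave -0.13 for Irf3 and -0.15 for Mavs, and a common total gave 0.061 for Zbp1. For LPS in WT, TMM factors gave 0.34 for Cgas, 0.29 for Tbk1 and 0.12 for Irf3, and quantile normalization 0.37, 0.13 and 0.00686. For LPS in cGAS-/- cells, Cgas gave 0.0034 with quantile normalization, Tbk1 -0.033 with a common total and Irf3 0.056 with TMM factors. For the difference of LPS effects, TMM factors gave -0.40 for Cgas, -0.064 for Irf3, -0.089 for Mavs and -0.13 for Dhx58, quantile normalization gave -0.37 for Cgas, -0.019 for Irf3 and -0.10 for Mavs, weights per sample gave -0.00524 for Mavs, and a pseudocount of 0.1 gave -0.13 for Cgas. When a sample was left out, the differences between genotypes with LPS that turned ran from -0.042 to 0.39 for Ikbke, -0.17 to 0.12 for Irf3, -0.13 to 0.90 for Samhd1, -0.29 to 0.35 for Mavs, -0.16 to 1.28 for Ifih1 and -0.82 to 0.45 for Zbp1. Likewise the LPS difference ran from -0.36 to 0.12 for Cgas and -0.79 to 0.10 for Tbk1 in WT and from -0.034 to 0.091 for Tbk1 in cGAS-/- cells, and the difference of LPS effects from -0.21 to 0.27 for Cgas, -0.050 to 0.83 for Tbk1 and -0.13 to 0.51 for Mavs. TMM factors moved the median of all genes from -0.46 to -0.09 in WT LPS against UT, from -0.20 to -0.02 in cGAS-/- cells and from 0.20 to 0.04 between genotypes with LPS. Of the values of named genes under the alternatives, 1504 kept their direction and their side of the threshold, 45 became called, 26 lost a call and 45 turned, and the causes were not tested.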
